A study of Mus musculus with 15 samples.

Results

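The 7 genes described here encode proteins that shorten the life of messenger RNAs or hold back cell division: Zfp36, Zfp36l1, Zfp36l2, Zc3h12a, Rc3h1, Btg1 and Btg2. They were chosen by name, and every probe set annotated to one of them alone was taken. On the arrays of CD4+ T cells this gave 14 of 45101 probe sets, with 1 for Zfp36, 2 for Zfp36l1, 3 for Zfp36l2, 2 for Zc3h12a, 1 for Rc3h1, 3 for Btg1 and 2 for Btg2. On the smaller thymocyte arrays it gave 11 of 22690 probe sets from 6 of the genes, and Rc3h1 had none there. The study asked which genes depend on the Ras isoforms N-ras and H-ras in T cells. All mice were of the 129/SJ strain, and the WT mice were littermates of knockout mice. The mice for CD4+ T cells were 6 to 20 weeks old, while the sources differ on the age for thymocytes, 6 weeks in the methods and 6 to 20 weeks in the labels. Splenic CD4+ T cells of both genotypes, WT and N-ras KO, were sorted and kept overnight without stimulus or with antibodies against CD3 and CD28 at 1 μg/ml, a low-level stimulus of the T-cell receptor (TCR), in 4 groups of 3 arrays. Untreated thymocytes were measured on 1 array for each of 3 genotypes, these same ones and H-ras KO. The knockouts are germline deletions, so every cell of these mice lacked the gene throughout development.

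Messenger RNAs of cytokines and of many early activation genes carry AU-rich elements or stem loops in their tails, and proteins that bind these elements set how long the message lasts. Zfp36 (tristetraprolin) and its paralogs Zfp36l1 and Zfp36l2 bind AU-rich elements through CCCH zinc fingers and recruit the CCR4-NOT complex, which removes the poly(A) tail. Zc3h12a (Regnase-1) is an endonuclease and Rc3h1 (Roquin-1) a binding protein that act on stem loops in messages such as those of Icos, Il6 and Tnf, and Btg1 and Btg2 are antiproliferative proteins that bind the deadenylases of the same complex and are known for their part in keeping T cells quiescent. Zfp36 and Btg2 are themselves early response genes in many cell types.

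The bases before the transcription start are shown for the 3 genes with a probe set that moved the same way in every pair of CD4+ arrays, to show the sequence next to the start of each. Each is the 250 bases before the start in RefSeq on GRCm38.p6, read 5′ to 3′ on the strand of the gene. Capitals mark matches on either strand to the motifs searched.
Zfp36 (chr7:28379229-28379478, minus strand): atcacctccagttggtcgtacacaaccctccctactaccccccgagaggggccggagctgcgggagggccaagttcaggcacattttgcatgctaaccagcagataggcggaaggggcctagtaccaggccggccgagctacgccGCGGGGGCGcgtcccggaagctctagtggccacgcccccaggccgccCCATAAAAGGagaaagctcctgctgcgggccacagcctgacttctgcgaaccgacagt
Zfp36l1 (chr12:80113014-80113263, minus strand): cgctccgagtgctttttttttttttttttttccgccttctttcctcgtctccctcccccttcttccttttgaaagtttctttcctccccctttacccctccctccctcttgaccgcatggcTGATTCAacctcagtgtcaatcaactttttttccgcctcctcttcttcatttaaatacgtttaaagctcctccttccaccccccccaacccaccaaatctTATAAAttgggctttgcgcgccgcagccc
Btg2 (chr1:134079156-134079405, minus strand): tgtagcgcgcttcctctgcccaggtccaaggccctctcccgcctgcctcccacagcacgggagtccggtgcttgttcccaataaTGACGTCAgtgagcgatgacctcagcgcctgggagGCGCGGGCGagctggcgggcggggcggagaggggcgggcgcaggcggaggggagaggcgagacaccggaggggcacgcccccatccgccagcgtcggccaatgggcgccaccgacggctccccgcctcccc

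In the Zfp36 window the capitals are a CArG box, the site of serum response factor, 58 to 49 bases before the start, and an Egr motif (GCGNGGGCG) from 105 to 97 bases before it. A CArG box stood in 1.47% and the Egr motif in 4.7% of the 32851 windows of the same kind in the RefSeq table. The Zfp36l1 window held an AP-1 motif (TGANTCA) 129 to 123 bases and a TATA motif (TATAAA) 29 to 24 bases before the start, letters found in 6.75% and 12.4% of all windows. The Btg2 window held a full cAMP response element, CRE (TGACGTCA), 166 to 159 bases before the start, as did 1.55% of all windows, and an Egr motif from 131 to 123 bases before it. The CRE contains the half-site ACGTCA on both strands, a sequence that was present in 6.47% of windows. The windows of the other genes held an AP-1 motif in Rc3h1, a CRE half-site and a TATA motif in Btg1, and none in Zc3h12a, while Zfp36l2 had no entry in the table. A motif for NF-kappaB was also sought, was present in 5.0% of windows and had no match in the 6 windows of these genes. These matches describe the letters and do not show that a factor binds there.

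The deposited values are log2 levels from which the authors had subtracted a median, so they hold no brightness. In CD4+ T cells the median of the 3 unstimulated arrays was 0 for each of the 45101 probe sets within WT and within N-ras KO, which makes a comparison of the unstimulated genotypes void and makes a value of 0.50 mean 0.50 log2 above that genotype's own unstimulated median. Arrays of one genotype that carry the same replicate number varied together and were treated as pairs. On its 3 probe sets Nras went against the labels in the library labelled N-ras KO 3, which lay at 0.80 to 2.09 log2 above its own group's baseline, and in the library labelled WT 1, at -3.04 to -0.14 log2, so the genotypes below are those of the labels and results are also given without these arrays. The number 3 arrays of both genotypes had the lowest quality weights, 0.34 to 0.57 where 1 is average. The low weights are beside every level given for number 3 below, and their part was not tested.

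After the low-level TCR stimulus Zfp36 and Zfp36l1 were higher than in the unstimulated partner in every pair of both genotypes, and 1 of the 2 probe sets of Btg2 was lower in every pair. The mean differences were small, 0.24 log2 for Zfp36, 0.45 and 0.11 log2 for the probe sets of Zfp36l1 and -0.36 log2 for Btg2. Zfp36l2, Zc3h12a, Rc3h1, Btg1 and the other Btg2 probe set had pairs in both directions. Thus 4 of the 14 probe sets (28.6%), from 3 of the 7 genes, had all 6 pairs in 1 direction. Over all 45101 probe sets, 2.42% were higher and 2.13% lower in all 6 pairs. No probe set of these genes, and no probe set on the arrays, passed an adjusted p of 0.05 in any contrast of the limma fits. In the fit without a block for the replicate number 520 probe sets in WT and 1162 in N-ras KO had an unadjusted p under 0.05. With that block 1941 and 3200 had it. None of the differences of these genes is therefore called a change.

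**Figure D1:**
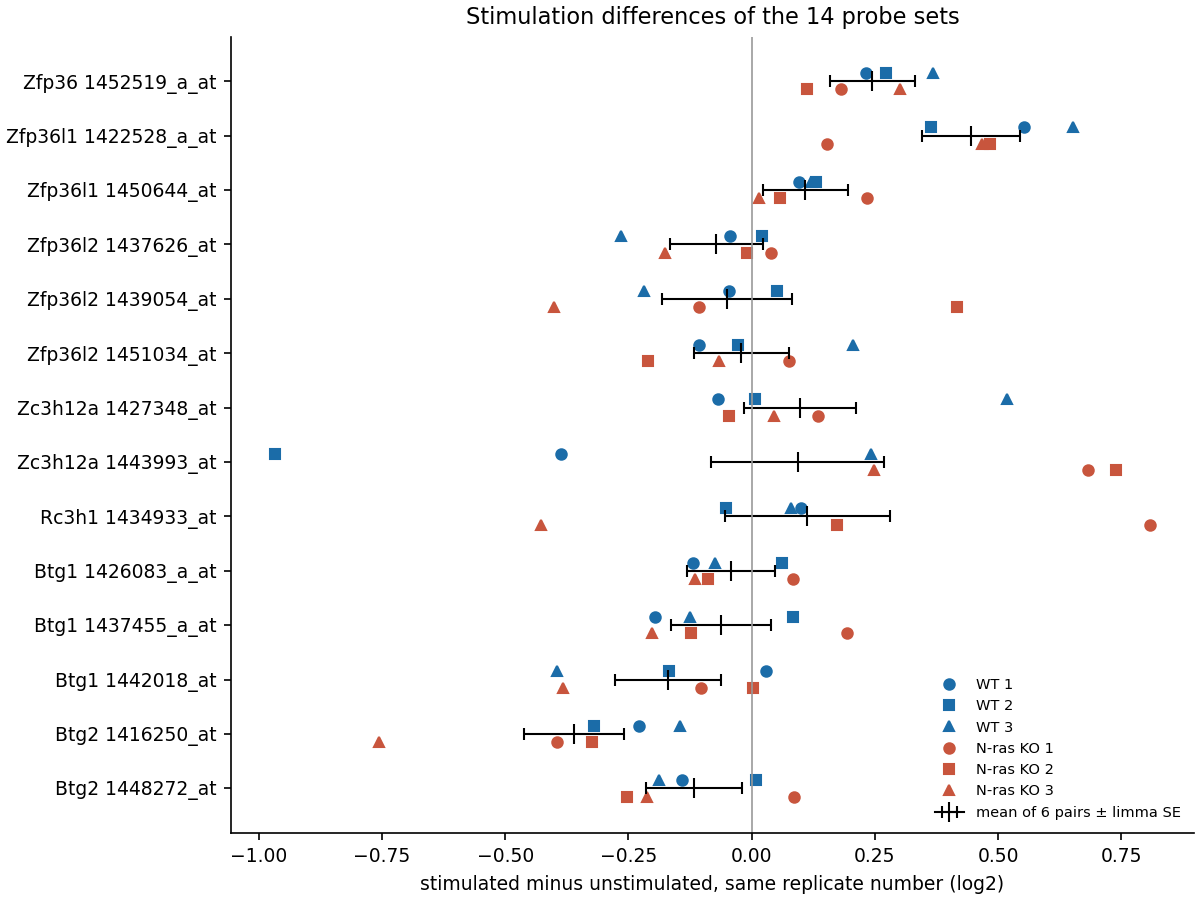
Stimulated minus unstimulated log2 value of the 14 probe sets in each pair of CD4+ arrays (circle, square and triangle for replicate numbers 1, 2 and 3, blue for WT and red for N-ras KO), with the mean of the 6 pairs and its standard error from limma with the replicate block in black. Zfp36 and Zfp36l1 lie to the right of 0 and Btg2 1416250_at to the left of 0 in all 6 pairs, and the other 10 probe sets lie on both sides.

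Zfp36, which destabilises the messages of Tnf and Il2 among others, was at 0.24, 0.00 and -0.78 log2 in the unstimulated arrays WT 1, 2 and 3 and at 0.47, 0.27 and -0.42 log2 in the stimulated ones. In N-ras KO it was at 0.00, -0.24 and 0.64 log2 without stimulus and at 0.18, -0.12 and 0.94 log2 with it. Within each genotype the stimulated and unstimulated groups overlapped. WT 3 was low and N-ras KO 3 high under both conditions, and every difference within a pair was above 0. These were 0.23, 0.27 and 0.37 log2 in WT and 0.18, 0.11 and 0.30 log2 in N-ras KO. The mean response was 0.29 ± 0.07 log2 for the WT pairs and 0.20 ± 0.09 log2 for those of N-ras KO (SD, n = 3 pairs each). With the replicate block the mean over both genotypes was 0.24 ± 0.09 log2 (SE, adjusted p = 0.745 from limma), a 1.18-fold difference. The upper quartile of all probe sets lay between 0.23 and 0.34 log2 in the single pairs. Zfp36 was above it in WT 2 and WT 3 and below it in the other pairs. Its differences in single pairs were thus common in size on these arrays, and their sign was the same each time. Its mean over the 6 pairs was not set against such means of all probe sets.

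Zfp36l1 was measured by 1422528_a_at, on which its mean response was larger than that of Zfp36, and by 1450644_at, on which it was smaller. On 1422528_a_at it was at 0.01, 0.00 and -0.85 log2 in unstimulated WT and at 0.56, 0.36 and -0.20 log2 in stimulated WT. In N-ras KO the values were -0.35, 0.00 and 1.03 log2 without and -0.20, 0.48 and 1.5 log2 with the stimulus. As for Zfp36, WT 3 was the lowest and N-ras KO 3 the highest array of its group, and the stimulated and unstimulated groups of each genotype overlapped. The pair differences were 0.55, 0.36 and 0.65 log2 in WT and 0.15, 0.48 and 0.47 log2 in N-ras KO, with a mean over the 6 of 0.45 ± 0.10 log2 (SE with the replicate block, adjusted p = 0.670 from limma), or 1.36-fold. On 1450644_at all pairs were higher too, by 0.01 to 0.23 log2, but N-ras KO 3 differed by 0.01 log2 alone. Its mean of 0.11 ± 0.09 log2 (SE, adjusted p = 0.822 from limma with the block) was close to its error, and with the arrays centred on their medians or normalised to equal quantiles this probe set no longer had every pair in 1 direction. Zfp36l1 has a near-identical processed copy, Zfp36l1-ps, in RefSeq, and signal from the copy and from the gene cannot be told apart here.

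Zfp36l2, the paralog with a known part in thymocyte development, showed no common direction. Its 3 probe sets had 2 pairs higher and 4 lower each, with means over the 6 pairs of -0.07 ± 0.09, -0.05 ± 0.13 and -0.02 ± 0.10 log2 for 1437626_at, 1439054_at and 1451034_at (SE from limma with the block, adjusted p = 0.888 to 0.975). On 1439054_at the pairs ran from -0.40 log2 in N-ras KO 3 to 0.42 log2 in N-ras KO 2, and on the other 2 probe sets the pairs stayed between WT 3 at -0.26 log2 on 1437626_at and WT 3 at 0.21 log2 on 1451034_at, so that the same pair gave both ends.

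Zc3h12a, the Regnase-1 gene, had probe sets that did not move alike. On 1443993_at it was at 0.00, 0.64 and -0.60 log2 in unstimulated WT and at -0.39, -0.32 and -0.36 log2 in stimulated WT, and at -0.51, 0.00 and 0.07 log2 in unstimulated and 0.17, 0.74 and 0.32 log2 in stimulated N-ras KO. The stimulated WT values thus all lay below the stimulated N-ras KO values. Each is relative to its own genotype's unstimulated median, so their difference of -0.77 ± 0.31 log2 (WT minus N-ras KO) sets 2 changes from separate baselines side by side and does not compare levels (SE, unadjusted p = 0.032 and adjusted p = 0.624 from limma without the block). The pair differences were -0.39, -0.97 and 0.24 log2 in WT and 0.68, 0.74 and 0.25 log2 in N-ras KO, and the difference of the 2 responses was -0.93 ± 0.44 log2 (SE, adjusted p = 1.0 from limma) without and -0.93 ± 0.35 log2 (SE, unadjusted p = 0.0377, adjusted p = 0.961 from limma) with the block. On 1427348_at the same difference between the stimulated groups was 0.15 ± 0.23 log2 (WT minus N-ras KO, SE, adjusted p = 0.872 from limma), in the other direction, and the pairs ran from -0.07 log2 in WT 1 to 0.52 log2 in WT 3. Without the arrays of N-ras KO 3 and WT 1 the difference between the stimulated groups on 1443993_at was -0.80 log2 and no longer passed an unadjusted p of 0.05. It also failed that threshold when WT 1, WT 2, WT 3 or N-ras KO 2 was left out of the stimulated arrays, at -0.60 to -0.78 log2.

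Rc3h1, the Roquin-1 gene, was at 0.00, 0.33 and -0.29 log2 in unstimulated and 0.10, 0.27 and -0.21 log2 in stimulated WT. Its pairs were close to 0 in WT, at 0.10, -0.05 and 0.08 log2, and wide apart in N-ras KO, at 0.81, 0.17 and -0.43 log2. The mean over the 6 pairs was 0.11 ± 0.17 log2 (SE, adjusted p = 0.904 from limma with the block).

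Btg1, which is abundant in resting lymphocytes, had pairs on both sides of 0. Its probe sets 1426083_a_at, 1437455_a_at and 1442018_at had 2 pairs higher and 4 lower each, with means of -0.04 ± 0.09, -0.06 ± 0.10 and -0.17 ± 0.11 log2 over the 6 pairs (SE, adjusted p = 0.801 to 0.938 from limma with the block). The first 2 had the same sign in each pair, while 1442018_at was furthest from 0 in the number 3 pairs, at -0.40 log2 (WT) and -0.38 log2 (N-ras KO). RefSeq holds the copies Btg1b and Btg1c of this gene, and their signal and that of Btg1 cannot be told apart here.

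Btg2, which is induced by p53 and by growth factors and binds the same deadenylases, was split between its probe sets. On 1416250_at the values were 0.00, -0.31 and 1.11 log2 in unstimulated WT and -0.23, -0.63 and 0.97 log2 in stimulated WT. In N-ras KO they were 0.09, 0.00 and -0.12 log2 without and -0.31, -0.33 and -0.88 log2 with the stimulus. Here the stimulated N-ras KO arrays lay wholly below the unstimulated ones, whereas in WT the groups overlapped, with WT 3 far above the others in both. The pair differences were -0.23, -0.32 and -0.14 log2 in WT and -0.39, -0.33 and -0.76 log2 in N-ras KO, and the mean was -0.36 ± 0.10 log2 (SE, adjusted p = 0.729 from limma with the block), or 1.28-fold lower. On 1448272_at the values ran from -0.67 to 0.36 log2 in WT and from -0.28 to 0.48 log2 in N-ras KO, 4 pairs were lower and 2 higher, and the mean was -0.12 ± 0.10 log2 (SE, adjusted p = 0.826 from limma with the block). The response of 1416250_at differed between the genotypes by 0.26 ± 0.20 log2 (WT minus N-ras KO, SE, adjusted p = 0.961 from limma with the block), which did not pass the test.

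**Figure D2:**
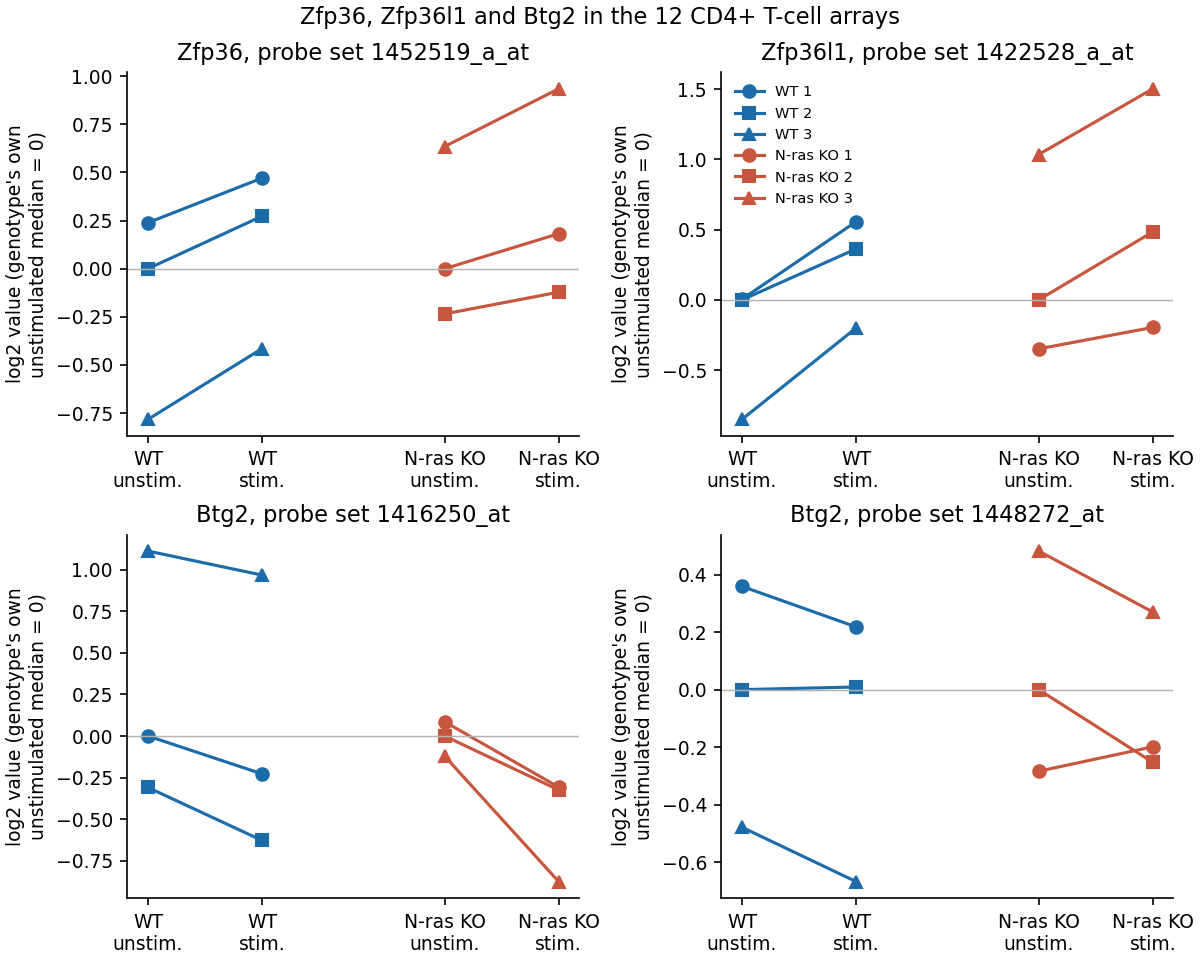
Log2 values of Zfp36, Zfp36l1 (1422528_a_at) and both Btg2 probe sets in the 12 CD4+ arrays, each line joining the unstimulated and the stimulated array of 1 replicate number (circle, square and triangle for 1, 2 and 3), with 0 at the median of the genotype's own unstimulated arrays. The lines of Zfp36 and Zfp36l1 all go up, and for both genes WT 3 lies below and N-ras KO 3 above the other lines of its genotype. WT 3 is the lowest WT line for Zfp36, Zfp36l1 and Btg2 1448272_at and the highest for Btg2 1416250_at.

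The spread between arrays of different numbers was wide for some of the genes. The SD of the unstimulated arrays was for Zfp36 0.54 log2 (WT) and 0.45 log2 (N-ras KO), against the mean response of 0.24 log2, and for Btg2 1416250_at 0.75 log2 in WT but 0.10 log2 in N-ras KO, against mean responses of -0.23 and -0.49 log2. Some of the genes varied together over the arrays and others did not. Over the 12 arrays Zfp36 and Zfp36l1 1422528_a_at had a Pearson r of 0.87 and a Spearman rho of 0.81, and r was 0.67 without the 2 arrays farthest from the median of Zfp36. Zfp36 and Btg1 1426083_a_at had r of 0.87 and rho of 0.92, with r of 0.89 without those 2 arrays. Zfp36 and Btg2 1416250_at ran in opposite directions (r of -0.81, rho of -0.62, and r of -0.56 without those 2 arrays), and Zfp36 and Zc3h12a 1427348_at had r of -0.03 and rho of -0.23. The probe sets of Btg2 ran against each other, with r of -0.65 and rho of -0.47, and without the 2 arrays farthest from the median of 1416250_at this relation was gone (r of -0.10), so it rests on those 2 arrays. Without the arrays of WT 1 and N-ras KO 3 the r with Zfp36 was 0.65 for Zfp36l1, 0.82 for Btg1, -0.91 for Btg2 and 0.67 for Zc3h12a on these probe sets. That of Zc3h12a was instead -0.415 without the 2 arrays farthest from the median of Zfp36, so it depended on the arrays kept. Between the probe sets of Btg2 r was -0.85 without WT 1 and N-ras KO 3. These correlations describe 12 arrays that share 6 pairs and 2 separate baselines. The arrays also differed in markers of other cells: the mean of the B cell markers was 0.77 and 1.51 log2 in unstimulated and stimulated WT 3 and 0.72 and 1.35 log2 in N-ras KO 3, against -0.40 to 0.45 log2 in the other 8 arrays. The mean of the T cell markers was 0.71 and 0.52 log2 in WT 3 and -0.51 and -0.76 log2 in N-ras KO 3, against -0.36 to 0.16 log2 in the others, and that of the RNA exosome genes 0.52 and 0.59 log2 in WT 3 and -0.61 and -0.69 log2 in N-ras KO 3. The neutrophil markers differed in arrays of other numbers too. Their mean was -1.68 and -1.705 log2 in unstimulated and stimulated WT 2, and -0.095 and 1.91 log2 in unstimulated and stimulated N-ras KO 1. The part of all these differences in the levels of Zfp36, Zfp36l1 and Btg2 was not tested.

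The genes whose values followed each of the 7 most closely over the 12 arrays, among probe sets of 1 gene, were chosen by Pearson r. For Zfp36 they were Pramel13 (r = 0.98), Serf1 (r = 0.98) and Ptgdr2 (r = 0.98). For Zfp36l1, taken by 1450644_at, they were Man1a (r = 0.98), Tpd52 (r = 0.96) and Tmem168 (r = 0.96). For Zfp36l2, taken by 1437626_at, they were Git2, Pde2a and Sfxn3 (r = 0.93 to 0.95), and for Zc3h12a, taken by 1427348_at, Rtl5, Cks1b and Tmem255a (r = 0.84 to 0.85). Rc3h1 was followed by Atp13a3, D630045J12Rik and 5430427M07Rik (r = 0.91 to 0.92). Btg1, taken by 1442018_at, was followed by Lin54 (r = 0.98), Irf2bpl (r = 0.97) and Tent5c (r = 0.97), a poly(A) polymerase gene. Btg2, taken by 1416250_at, was followed by Orc2 (r = 0.98), Mpv17 (r = 0.95) and Use1 (r = 0.94). No member of the 7 was among the closest genes of another, and over the 6 pair differences alone r with the member ran from -0.08 for Ptgdr2 to 0.98 for Sfxn3.

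At the thresholds used in the study, an unadjusted p under 0.05 and at least 1.5-fold, none of the 14 probe sets was called in the response of WT, where 1.04% of all probe sets were. None was called in the response of N-ras KO (2.34% of all) or in the difference of the responses (1.29% of all). In the contrast of the stimulated groups, which sets changes from separate baselines against each other and not levels, Zc3h12a 1443993_at alone was called, where 6.9% of all were. With the replicate block none of the 14 was called in WT (2.8% of all) or N-ras KO (4.91% of all), and 1, again Zc3h12a 1443993_at, in the difference (4.12% of all). A count of 1 in 14 is 1 probe set, too few to set its share apart from the 6.9% or 4.12% of all. The median over the 14 probe sets was -0.06 log2 for the WT response and -0.04 log2 for that of N-ras KO, against 0.003 and 0.011 log2 over all probe sets.

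The other genes of the decay pathway were taken from lists, each described over all of its annotated probe sets. Of the CCR4-NOT and PAN deadenylase genes 13 of 14 were measured by 41 probe sets, of which 1 was higher and 1 lower in all 6 pairs, with a median response of 0.02 log2. The decapping and 5′ to 3′ decay genes (16 genes, 34 probe sets) had none higher and 3 lower in all pairs and a median of 0.004 log2. The RNA exosome genes (15 genes, 28 probe sets) had 1 lower and the nonsense-mediated decay genes (7 genes, 14 probe sets) none in 1 direction, with medians of 0.02 and 0.005 log2. These compare with a median of 0.008 log2 over all probe sets, of which 2.42% were higher and 2.13% lower in all 6 pairs. At the study's thresholds no gene of the deadenylase, decapping or exosome lists was called in either response, and Upf2, a nonsense-mediated decay factor, had 1 probe set at -1.15 log2 in N-ras KO (SE 0.42, adjusted p = 1.0 from limma). With the replicate block 2.8% of all probe sets were called in WT and 4.91% in N-ras KO. Exosc8, an exosome subunit, was then called in WT at -0.64 log2. Lsm6 on 1437108_at, Dcp1b on 1444030_at and the exoribonuclease gene Dis3l were called lower in N-ras KO, at -0.75, -0.77 and -0.75 log2, and Upf2 again. In the N-ras KO pairs Dcp1b was at 0.127, 0.201 and 0.911 log2 on 1437572_at and at -0.964, -0.017 and -0.236 log2 on 1458614_at. Dis3l was at -1.417 log2 in N-ras KO 3 against -0.468 and -0.361 log2 in N-ras KO 1 and 2. The nonsense-mediated decay genes Smg5, on 1434546_at, and Smg6, on 1425883_at, were called higher in N-ras KO, at 1.355 and 0.72 log2. The Smg5 value was 2.925 log2 in N-ras KO 3 against 0.885 and 0.254 log2 in N-ras KO 1 and 2. Its probe set 1451797_at was at 0.455, 0.938 and 0.117 log2 in these pairs of N-ras KO 1, 2 and 3. For Smg6 they were at 0.373, 0.004 and 0.059 log2 on 1433911_at and at -0.522, 0.268 and -1.355 log2 on 1445418_at. In the contrast of the stimulated groups, again relative to separate baselines, 6.9% of all probe sets were called. Cnot7, a catalytic deadenylase subunit, was called at -1.35 log2 (WT minus N-ras KO) on 1430519_a_at alone of its probe sets. The decapping list had 3 of its 34 probe sets called with a positive and 4 with a negative difference, Dcp1a among both.

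Among the paralogs Tob2, an antiproliferative protein of the Btg family, was higher in all 6 pairs on 2 of its 5 probe sets, by 0.33 ± 0.10 log2 on 1417309_at and 0.16 ± 0.09 log2 on 1448667_x_at (SE, adjusted p = 0.738 and 0.783 from limma with the block). Zc3h12c was called at 1.43 log2 in WT by 1441787_at and at 1.32 log2 in N-ras KO by 1444402_at, though the first rests on WT 3 (3.02 log2, against 0.68 and 0.60 log2 in WT 1 and WT 2). The probe sets did not move alike. In N-ras KO the pairs of 1441787_at were at -0.05, 0.18 and 0.15 log2, and in WT those of 1444402_at at -0.625, 0.13 and 0.26 log2. Between the stimulated groups they were called in opposite directions, at 1.30 and -1.30 log2 (WT minus N-ras KO, separate baselines). Rc3h2, the paralog of Rc3h1, was called lower in N-ras KO by 1 of its 7 probe sets, 1420144_x_at, at -1.80 log2. In the list of other AU-rich element binders and partners (11 genes, 37 probe sets) 1 probe set was higher and 1 lower in all 6 pairs (2.42% and 2.13% of all), with a median of 0.04 log2. Tia1 was called at -1.81 log2 in WT on 1437934_at alone, and its other probe sets had means of -0.25 to 0.24 log2 over the 6 pairs. Hnrnpd on 1458273_at was called at -1.40 log2 in N-ras KO, with -2.90 log2 in N-ras KO 3 against -1.05 and -0.26 log2 in N-ras KO 1 and 2. Its probe sets 1457568_at and 1425142_a_at had means of -0.44 and 0.09 log2 over the 6 pairs.

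The messages known as targets of these proteins were higher with the stimulus in part. Of the 21 such genes, measured by 31 probe sets, 8 genes had a probe set that was higher in all 6 pairs (10 of 31 probe sets, 32.3%, against 2.42% of all), none had one that was lower in all, and the median response was 0.35 log2. They were Irf4, Il2ra, Tnf, Tnfrsf4, Rel, Myc, Nfkbid and Cxcl1, which are also known products of T-cell activation or of NF-kappaB. Irf4 on 1421173_at differed by 2.00, 1.18 and 1.60 log2 in WT and by 2.54, 2.03 and 2.59 log2 in N-ras KO, a mean of 1.99 ± 0.15 log2 (SE, adjusted p = 0.333 from limma with the block). Tnf, the best known target of Zfp36, differed by 0.37, 0.62 and 2.16 log2 in WT and by 0.78, 1.08 and 1.25 log2 in N-ras KO, and Rel by 0.78, 0.48 and 0.58 log2 in WT and 0.82, 3.01 and 3.6 log2 in N-ras KO. Of the targets 8 probe sets in WT (1.04% of all probe sets were called) and 4 in N-ras KO (2.34% of all) reached the study's thresholds, all higher, and with the block 10 and 5 did (2.8% and 4.91% of all). The immediate early genes (21 genes, 41 probe sets) had 9 probe sets higher and 4 lower in all pairs (2.42% and 2.13% of all). The lower ones were all of Klf6. The median response of this list was 0.20 log2, beside 0.24 log2 for Zfp36 and -0.36 log2 for Btg2 1416250_at. Its genes ranged widely, with Egr2 at 3.98 log2 and Nr4a1 at 2.92 log2 in the mean, but Junb at 0.21 and Ier2 at 0.12 log2.

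**Figure D3:**
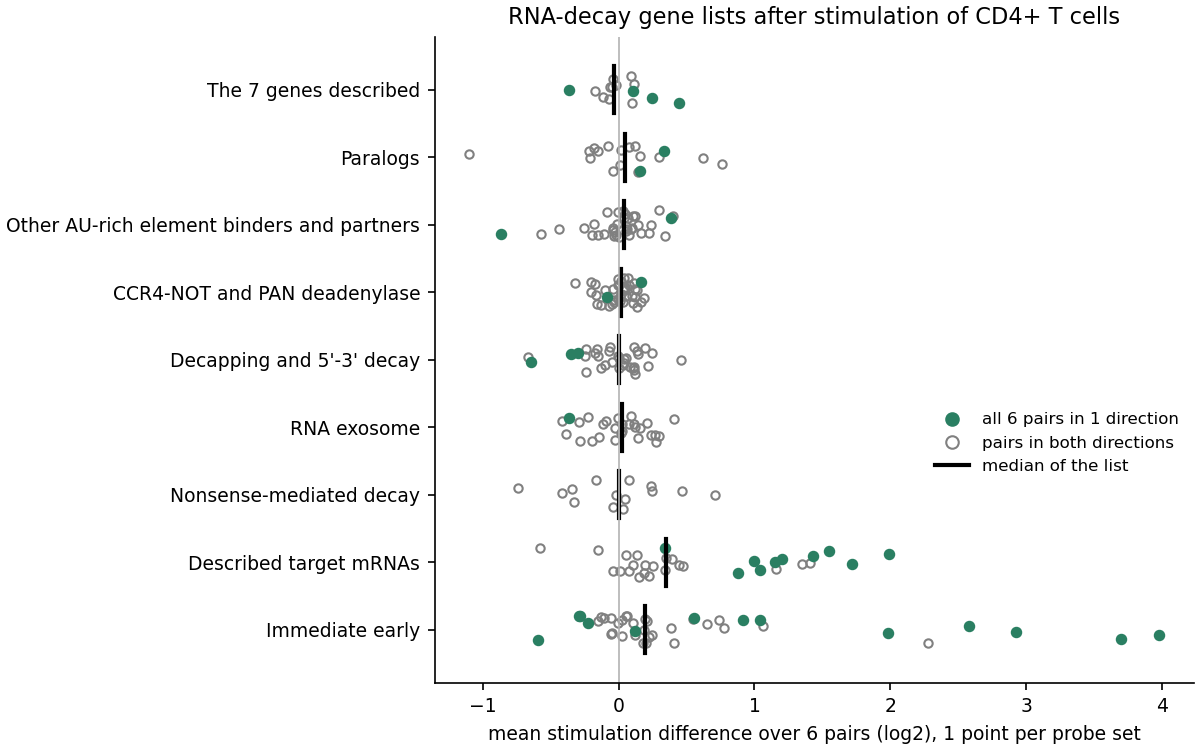
Mean stimulated minus unstimulated difference over the 6 pairs for each probe set of the 7 genes and of 8 lists, with green points for probe sets whose pairs all had 1 direction, open points for the others and a black bar at each median. The medians of the decay machinery lie between 0.004 and 0.02 log2, that of the described target messages at 0.35 log2 and that of the immediate early genes at 0.20 log2.

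Markers of other cells had the following differences. The B cell markers had 2 of 15 probe sets higher in all 6 pairs (2.42% of all) and a median of 0.28 log2. The CD8 and NK cell markers had a median of -0.36 log2 over 13 probe sets, the neutrophil markers 0.16 log2 over 10 and the macrophage and dendritic cell markers 0.04 log2 over 11. The neutrophil list was uneven, its median over the probe sets differing by 1.61 log2 in 1 N-ras KO pair and by -0.84 log2 in 1 WT pair. T cell markers had a median of -0.05 log2 over 13, erythroid markers 0.003 log2 over 5 and heat shock genes 0.05 log2 over 26 probe sets. Several of the 7 genes are active in B cells and myeloid cells, and the part of these markers in the differences of Zfp36, Zfp36l1 and Btg2 was not tested. Since the values hold no brightness, whether a marker is present or absent could not be read, and fewer cells of a type cannot be told apart from less RNA per cell.

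In thymocytes, with 1 array per genotype and so no test, Zfp36 and Zfp36l2 were higher in WT than in both knockouts. Zfp36 was at 0.72 log2 in WT, at 0.00 with N-ras deleted and at -0.32 log2 with H-ras deleted, so that WT exceeded them by 0.72 log2 (1.65-fold) and 1.04 log2 (2.06-fold). Zfp36l2 was at 0.68, -0.44 and 0.00 log2 on 1451034_at, which put WT 1.12 log2 (2.17-fold) above N-ras KO and 0.68 log2 (1.6-fold) above H-ras KO. On 1437626_at it was at 0.16, -0.56 and 0.00 log2, a difference of 0.73 log2 from N-ras KO and of 0.16 log2 from H-ras KO. On 1439054_at it was listed at 0 on all 3 arrays, like 23.7% of all thymocyte probe sets. Zfp36l2 was thus lowest in N-ras KO on both of its other probe sets and Zfp36 lowest in H-ras KO.

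The other genes stayed within 1.5-fold of WT. Zfp36l1 was lowest in H-ras KO on both probe sets, with WT higher by 0.45 and 0.47 log2, and differed from N-ras KO by 0.04 and -0.09 log2. Btg1 on 1437455_a_at was at 0.00 log2 in WT, 0.38 log2 in N-ras KO and -0.27 log2 in H-ras KO, and on 1426083_a_at at 0.00, 0.06 and -0.21 log2. The probe sets of Btg2 differed from WT by 0.05 to 0.15 log2 and that of Zc3h12a by -0.15 log2 for N-ras KO and 0.08 log2 for H-ras KO. In all 3 of 11 probe sets were at least 1.5-fold apart between WT and N-ras KO, where 2.64% of all were, and 2 of 11 between WT and H-ras KO, where 2.97% of all were. Both comparisons use the same WT array. The WT array was above H-ras KO for 10 of the 11 probe sets and above N-ras KO for 6, with medians of 0.21 and 0.04 log2 against 0 over all probe sets. How many of all probe sets were above each knockout was not counted, so these counts are not read as a trait of the genes.

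**Figure D4:**
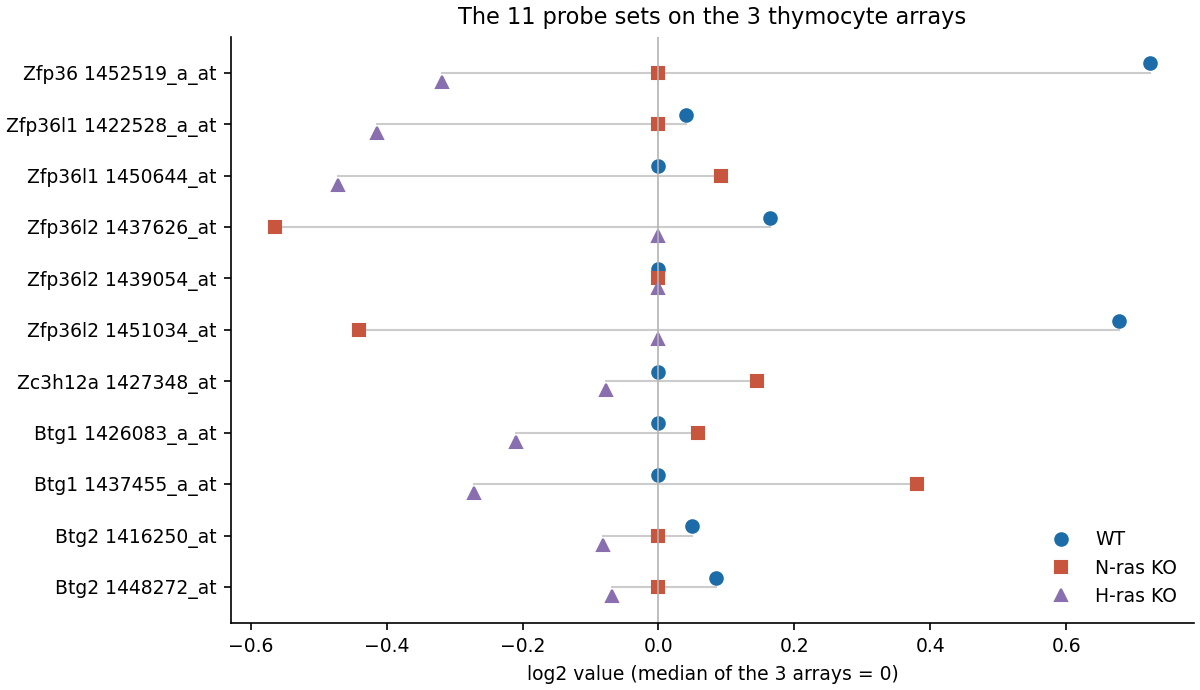
Log2 values of the 11 probe sets on the 3 thymocyte arrays (circle for WT, square for N-ras KO, triangle for H-ras KO), with 0 at the median of the 3 arrays. WT is past 1.5-fold above another array for Zfp36 and for Zfp36l2 on 1437626_at and 1451034_at, and H-ras KO the lowest for Zfp36, Zfp36l1, Zc3h12a, Btg1 and Btg2.

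The single WT thymocyte array stood apart in other genes too. Of the immediate early list the WT array exceeded N-ras KO by 1.5-fold or more on 15 of 31 probe sets and H-ras KO also on 15 (in either direction 2.64% and 2.97% of all thymocyte probe sets were past 1.5-fold), with Fos at 3.54 log2 and Jun at 3.39 log2 against N-ras KO. Of the heat shock list 15 of 23 and 7 of 23 were higher, led by Hspa1b at 5.33 log2 against N-ras KO and Hspa1a at 3.52 log2 against H-ras KO, and of the neutrophil markers 9 and 8 of 10. T cell markers (13 probe sets) and macrophage and dendritic cell markers (10 probe sets) had none past 1.5-fold in either comparison. Of the 12 probe sets of B cell markers 4 were past 1.5-fold above H-ras KO, among them H2-Aa at 1.31, Ms4a1 at 0.70 and Cd79a at 0.68 log2, and 1, Ms4a1 at -0.78 log2, was below N-ras KO. Nkg7, a marker of CD8 and NK cells, was 0.93 log2 above H-ras KO. The part of these differences in the values of Zfp36, Zfp36l1, Zfp36l2, Btg1 and Btg2 was not tested, and with 1 array per genotype the genotype and the mouse cannot be told apart.

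Of the decay machinery in thymocytes, only single probe sets were past 1.5-fold in these lists: Cnot4, a ubiquitin ligase of the CCR4-NOT complex, at -1.26 log2 (WT minus N-ras KO) and -1.12 log2 (WT minus H-ras KO), and Smg6, the endonuclease of nonsense-mediated decay, at -1.36 and -1.10 log2. None of the decapping (18 probe sets) or exosome (20 probe sets) genes was. Among the paralogs Tob1 differed by 0.70 log2 (WT minus N-ras KO) and 0.69 log2 (WT minus H-ras KO), Tob2 on 1417309_at by 0.67 and 0.44 log2, and Rc3h2 by -0.83 and -0.78 log2 (WT minus N-ras KO) on 2 probe sets. Pabpc1, a poly(A)-binding protein, was higher in WT by 1.69 and 1.62 log2 on 1453840_at but by 0.02 and 0.06 log2 on 1418883_a_at. Of the described targets the WT array was past 1.5-fold above N-ras KO on 4 of 26 probe sets and above H-ras KO on 7 of 26, and below them on none. In either direction 2.64% and 2.97% of all thymocyte probe sets were past 1.5-fold. Among these targets were Ctla4 at 1.16 and 1.29 log2, Ier3 at 1.11 and 1.05 log2 and Ifng at 0.80 and 1.04 log2. Tnf differed by 0.21 and 0.08 log2.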

How the data were processed

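RNA of 12 samples of CD4+ T cells and of 3 samples of thymocytes was hybridised to Affymetrix arrays. The deposited values are log2 levels per probe set, for which the authors used RMA with quantile normalisation and then subtracted a median, per their methods and the values themselves (median 0 within 1e-06 for the 3 unstimulated arrays of each genotype and for the 3 thymocyte arrays). The submitters' processing notes name RMA without a version. Array images and unscaled signals were not used here, and no column was left unmapped.

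Probe sets were named through the platform annotation and RefSeq: 34958 of 45101 had 1 gene, 932 several and 9211 none. The contrasts were fitted over all probe sets with limma 3.58.1 in R 4.3.3 on 4 group means without a block, as the main design, and with the replicate number as a block within genotype as the alternative, and p-values were adjusted by the Benjamini-Hochberg method. The mean response over both genotypes was added after the values were seen, with the same block, because it does not depend on the genotype labels. The pairing comes from the study's statement that sorted cells were split between conditions, and it was checked: deviations from the group means correlated at 0.46, 0.45 and 0.74 between the arrays of 1 number in WT and at 0.36, 0.39 and 0.63 in N-ras KO. Another sentence of the same methods speaks of separate mice, and numbers across genotypes correlated below 0. A probe set was counted as called at an unadjusted p under 0.05 and 1.5-fold, the study's thresholds, and in thymocytes at 1.5-fold. The p-values measure the spread between these arrays, whose number limits the precision. The fits were tested on simulated data.

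The 7 genes and the 15 gene lists were chosen with earlier results of these data known. All probe sets of the 7 genes are named. Of each list, genes at the study's thresholds, up to 3 per contrast and direction, could be named, and some of these are given, along with the 3 genes most like each of the 7. Those described for having all 6 pairs in 1 direction, and Tnf and Pabpc1 on other probe sets, were chosen after their values were seen. Genes for which the annotation gave no single-gene probe set, among them Cnot1, Upf3a and Btg3, were not analysed here. Promoter windows come from RefSeq on GRCm38.p6. Alternatives were array centring, quantile normalisation, array weights, the methods' t-test, 2-fold, no _s_at or _x_at probe sets, each array left out, and the arrays of N-ras KO 3 and WT 1 left out.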

Additional observations from a re-analysis of the deposited data

How the results depend on the processing

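The counts of called probe sets among the 14 changed by 1 in a few settings, and Zc3h12a 1443993_at alone made the difference. In the response of WT it raised the count from 0 to 1 with array weights (-0.66 log2), and the counts with 1 array left out ran from 0 to 1. In the difference of the responses it raised the count from 0 to 1 with array weights (-1.25 log2) and with the replicate block (-0.93 log2), and counts with 1 array left out ran from 0 to 1. The array whose removal gave both rises was WT unstimulated 3, with values of -0.68 and -1.23 log2 without it. Between the stimulated groups the count of 1 became 0 at 2-fold, with quantile normalisation (-0.62 log2) and without the arrays of N-ras KO 3 and WT 1, and ran from 0 to 1 with 1 array left out. The replicate block changed no other call, and the count for N-ras KO was 0 in every setting run. In thymocytes 1 of 11 probe sets remained past 2-fold in each comparison, Zfp36l2 1451034_at against N-ras KO and Zfp36 against H-ras KO, and the other settings left 3 and 2.

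The count of 4 probe sets with every pair in 1 direction was 3 with centred arrays and with quantile normalisation, in both without Zfp36l1 1450644_at, where 4.16% and 2.32% of all probe sets had it. Leaving out pairs cannot lower this count, so the 4 found without the pairs of N-ras KO 3 and WT 1 show no stability (13.8% of all had 4 like pairs). The mean responses of Zfp36, Zfp36l1 1422528_a_at and Btg2 1416250_at passed an unadjusted p of 0.05 with the block and lost it without the block, and those of Zfp36 and Btg2 also with quantile normalisation and without the arrays of N-ras KO 3 and WT 1. The mean response and the count over pairs were chosen after seeing the data. Of 1038 recomputed values of single probe sets 154 changed sign, none of them a called value or one beyond its standard error without the block. The largest of them, 0.368 log2, was the N-ras KO response of Zfp36l1 1422528_a_at. Its SE was 0.484 log2 without and 0.141 log2 with the block, so with the block it lay beyond its error. The methods' t-test called 351, 405 and 1840 probe sets at the study's thresholds in WT, in N-ras KO and between the stimulated groups, against 469, 1057 and 3112 in limma, and 0 after adjustment. The block called 1262, 2213 and 1859 in the 2 responses and their difference, against 469, 1057 and 583.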
